A study of Mus musculus with 16 samples.

Results

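Gasdermins are cytosolic proteins whose amino-terminal part, once a protease has cut it free, inserts into membranes and forms pores. Gasdermin D, cut by inflammatory caspases, releases interleukin-1 family cytokines and can end in lytic cell death called pyroptosis. The mouse genome carries a tandem array of gasdermin C genes, Gsdmc, Gsdmc2, Gsdmc3 and Gsdmc4, which are known in mouse intestinal epithelium for their induction by the type 2 cytokines interleukin-4 and interleukin-13 during worm infection; human gasdermin C is cut by caspase-8.

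The genes described here are the gasdermin C array and Gsdmd, taken by gene symbol from read counts of mouse jejunal epithelial organoids with and without deletion of Hnf4a, the gene of a nuclear receptor found in gut epithelium. Of the 5 genes, 4 were listed for both days, among 20790 genes listed at day 2 and 20658 at day 4. Gsdmc was listed on neither day and has no value here; every listed gene had at least 10 reads summed over the 8 libraries of its day. The 4 genes were chosen for their higher counts after deletion in these same libraries, so their differences between treatments are given as a description with no test.

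All organoids were C57BL/6, of genotype Villin-CreERT2; Hnf4aflox/flox, and the Villin promoter directs the tamoxifen-activated recombinase to the epithelium. Organoids of the deletion groups received 0.5 µM 4-hydroxytamoxifen (4OHT) for 24 h and were then split, and the controls, of the same genotype, received the solvent DMSO. There were 4 libraries each for 4OHT at day 2, DMSO at day 2, 4OHT at day 4 and DMSO at day 4. Harvest is described in the labels for day 4 only, counted from the last passage, and not for day 2. No group given 4OHT lacked the Cre or the floxed alleles, so effects of the drug and of Cre activity cannot be told apart from those of the deletion. Whether the replicates are separate animals, cultures or only separate libraries is not in the labels, and the p-values therefore speak only of how far these libraries spread, possibly for technical reasons.

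Library totals ran between 63.8 M and 93.3 M counts. Hnf4a itself, given in CPM (a gene's counts per M of library counts, after TMM scaling), averaged 511 ± 21.2 CPM in 4OHT and 1020 ± 31.7 CPM in DMSO organoids at day 2, and 469 ± 15.3 CPM in 4OHT and 967 ± 11.9 CPM in DMSO organoids at day 4 (SD, n = 4 each). Its log2 fold change, here and below 4OHT over DMSO unless said otherwise, was -0.99 ± 0.05 at day 2 (SE; edgeR quasi-likelihood test, adjusted p = 8.25e-08) and -1.04 ± 0.05 at day 4 (edgeR, adjusted p = 1.14e-06). The labels do not name the floxed exons, and the count covers the whole gene. The labelled epithelium was checked with 7 epithelial markers, whose summed level was 12400 to 13100 CPM in 4OHT and 10400 to 11700 CPM in DMSO organoids at day 2, and 7990 to 9310 CPM in 4OHT and 6880 to 7490 CPM in DMSO organoids at day 4. The 7 of 9 immune markers that were listed summed to 2.17 to 2.52 CPM in 4OHT and 3.03 to 3.88 CPM in DMSO organoids at day 2, and to 2.58 to 3.78 CPM in 4OHT and 2.96 to 3.39 CPM in DMSO organoids at day 4; Adgre1 was among those not listed. The 4 of 10 stromal and endothelial markers that were listed summed to at most 2.94 CPM in any library; Col1a2, Col3a1, Dcn, Acta2, Cdh5 and Kdr were not listed. Of the immune, stromal and endothelial markers tested, Itgam was lower at day 2 and Col1a1 higher on both days. Of the 7 epithelial markers, 2 were higher and 2 lower at day 2, and 2 higher and 0 lower at day 4. Among all genes tested, 16.9% were higher and 14.3% lower at day 2, and 13.7% and 11.1% at day 4. Krt8 and Krt18 were higher on both days, and Epcam and Cldn7 lower at day 2. Krt8 alone averaged 7210 CPM in 4OHT and 5790 CPM in DMSO organoids at day 2. All were named after their values were seen.

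The gasdermin C array lies on chromosome 15 of GRCm38, where Gsdmc to Gsdmc4 span 136 kb (GENCODE M21, 63775968 to 63912297, all on the minus strand). Gsdmc2 (ENSMUSG00000056293) occupies bases 63824346 to 63845177, Gsdmc3 (ENSMUSG00000055827) bases 63857724 to 63878558 and Gsdmc4 (ENSMUSG00000055748) bases 63891264 to 63912297. Gsdmd (ENSMUSG00000022575) lies 12.0 Mb away on the same chromosome, at bases 75862327 to 75867408 on the plus strand.

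The array genes are near copies, which bears on every count below. The first 90 coding bases of the 3 listed genes, from the GENCODE M21 transcripts, are shown here with capitals marking each base that differs from Gsdmc2:
Gsdmc2: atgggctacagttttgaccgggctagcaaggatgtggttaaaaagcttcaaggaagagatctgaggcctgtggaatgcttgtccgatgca
Gsdmc3: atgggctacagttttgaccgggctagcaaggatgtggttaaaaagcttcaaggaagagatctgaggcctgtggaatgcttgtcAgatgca
Gsdmc4: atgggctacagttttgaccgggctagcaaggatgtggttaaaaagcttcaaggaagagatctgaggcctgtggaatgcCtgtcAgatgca
Over this stretch Gsdmc3 differs from Gsdmc2 at 1 base and Gsdmc4 at 2. Their coding sequences were 97.1% identical over aligned bases between Gsdmc2 and Gsdmc3, 93.7% between Gsdmc2 and Gsdmc4, and 93.8% between Gsdmc3 and Gsdmc4. Gsdmd shared 53.7% of aligned bases with Gsdmc2.

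Other stretches tell the 3 genes apart, and the one shown was picked for the most differences between Gsdmc2 and Gsdmc3. The following 60-base stretch, coding bases 819 to 878 of Gsdmc2 and Gsdmc3 and 825 to 884 of Gsdmc4, is one of them, with capitals at the 15 positions that are not alike in all 3 genes:
Gsdmc2: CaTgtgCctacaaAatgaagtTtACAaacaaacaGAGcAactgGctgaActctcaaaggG
Gsdmc3: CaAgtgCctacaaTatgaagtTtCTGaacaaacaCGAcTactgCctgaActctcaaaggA
Gsdmc4: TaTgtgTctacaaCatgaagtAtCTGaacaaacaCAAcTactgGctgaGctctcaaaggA
Gsdmc3 differs from Gsdmc2 at 11 bases here and Gsdmc4 at 12. Of all 100-base stretches of the longest transcript, 28.6% in Gsdmc2, 30.5% in Gsdmc3 and 20.2% in Gsdmc4 occur letter for letter in a transcript of another gene of the array; for 50-base stretches the shares were 48.5%, 46.9% and 39.0%. No such stretch of Gsdmd occurred in another gene. How reads from shared stretches were counted is not given in the sources used here, so the level of each single array gene is uncertain, and the sum of the 3 is given beside it.

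Gsdmc2 was far higher in 4OHT than in DMSO organoids on both days. At day 2 its 4 libraries held 6.97, 5.69, 6.26 and 5.30 CPM in 4OHT organoids, against 0.182, 0.337, 0.258 and 0.191 CPM in DMSO organoids. At day 4 they held 6.13, 4.90, 5.83 and 4.28 CPM in 4OHT organoids, against 0.0541, 0.0639, 0.076 and 0.12 CPM in DMSO organoids. Every 4OHT library lay above every DMSO library of its day, and the DMSO values rest on 14 to 31 reads per library at day 2 and 5 to 8 at day 4. The log2 fold change was 4.62 ± 0.17 (SE; 24.7-fold) at day 2 and 6.10 ± 0.23 (68.4-fold) at day 4. Gsdmc2 ranked 1 by fold change among the 15897 genes tested at day 2 and 4 among the 16040 tested at day 4.

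Gsdmc4 was the array gene with the highest level per length in all 4 groups. At day 2 it held 9.31, 8.73, 8.12 and 6.65 CPM in 4OHT organoids, against 1.38, 1.03, 1.09 and 0.704 CPM in DMSO organoids. At day 4 it held 9.27, 8.94, 7.26 and 4.89 CPM in 4OHT organoids, against 0.454, 0.330, 0.304 and 0.226 CPM in DMSO organoids. The treatment groups did not overlap on either day, and in each of the 4 groups replicate 4 was the lowest library. Its log2 fold change was 2.97 ± 0.16 (SE; 7.86-fold) at day 2 and 4.50 ± 0.26 (22.6-fold) at day 4, smaller than that of Gsdmc2 on both days, a difference that was not tested.

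Gsdmc3 was the least abundant of the 3. At day 2 it held 0.914, 0.815, 0.844 and 0.819 CPM in 4OHT organoids, from 53 to 73 reads per library, against 0, 0.0434, 0.0703 and 0.0239 CPM in DMSO organoids, from 0 to 6 reads. At day 4 it held 0.469, 0.540, 0.393 and 0.429 CPM in 4OHT organoids, against 0, 0, 0.0152 and 0 CPM in DMSO organoids, where a single read was counted in the 4 libraries together. The groups did not overlap on either day. The log2 fold change at day 2 was 4.53 ± 0.33 (SE; 23-fold). At day 4 the ratio of summed counts, scaled to library size, was 146 from 146 reads in 4OHT and 1 read in DMSO libraries, with an exact 95% counting interval of 25.9 to 5820. Reads carry no molecular identifiers, so intervals of this kind cover counting error only.

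Summed over Gsdmc2, Gsdmc3 and Gsdmc4, the array held 17.2, 15.2, 15.2 and 12.8 CPM in 4OHT organoids at day 2, against 1.56, 1.41, 1.42 and 0.919 CPM in DMSO organoids. At day 4 the sum was 15.9, 14.4, 13.5 and 9.60 CPM in 4OHT organoids, against 0.508, 0.394, 0.395 and 0.346 CPM in DMSO organoids. The sum does not depend on how counted reads were divided among the 3 genes. Reads left uncounted, or shared with Gsdmc, could still change it. The groups of the sum were again fully apart. Its log2 fold change was 3.52 ± 0.14 (SE; 11.4-fold) at day 2 and 5.0 ± 0.19 (32.0-fold) at day 4. In such bulk libraries, more cells that express the array and more of its RNA per cell cannot be told apart.

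Gsdmd was abundant in every library and differed by less. At day 2 it held 223, 228, 236 and 235 CPM in 4OHT organoids, against 135, 138, 136 and 137 CPM in DMSO organoids. At day 4 it held 184, 162, 182 and 221 CPM in 4OHT organoids, against 88.9, 86.7, 83.8 and 93.6 CPM in DMSO organoids. The groups did not overlap on either day, and the spread was widest in 4OHT at day 4, where replicate 4 was highest for Gsdmd and lowest for Gsdmc2 and Gsdmc4. The log2 fold change was 0.76 ± 0.04 (SE; 1.70-fold) at day 2 and 1.09 ± 0.08 (2.12-fold) at day 4, which ranked 683 of 15897 and 445 of 16040 genes.

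**Figure D1:**
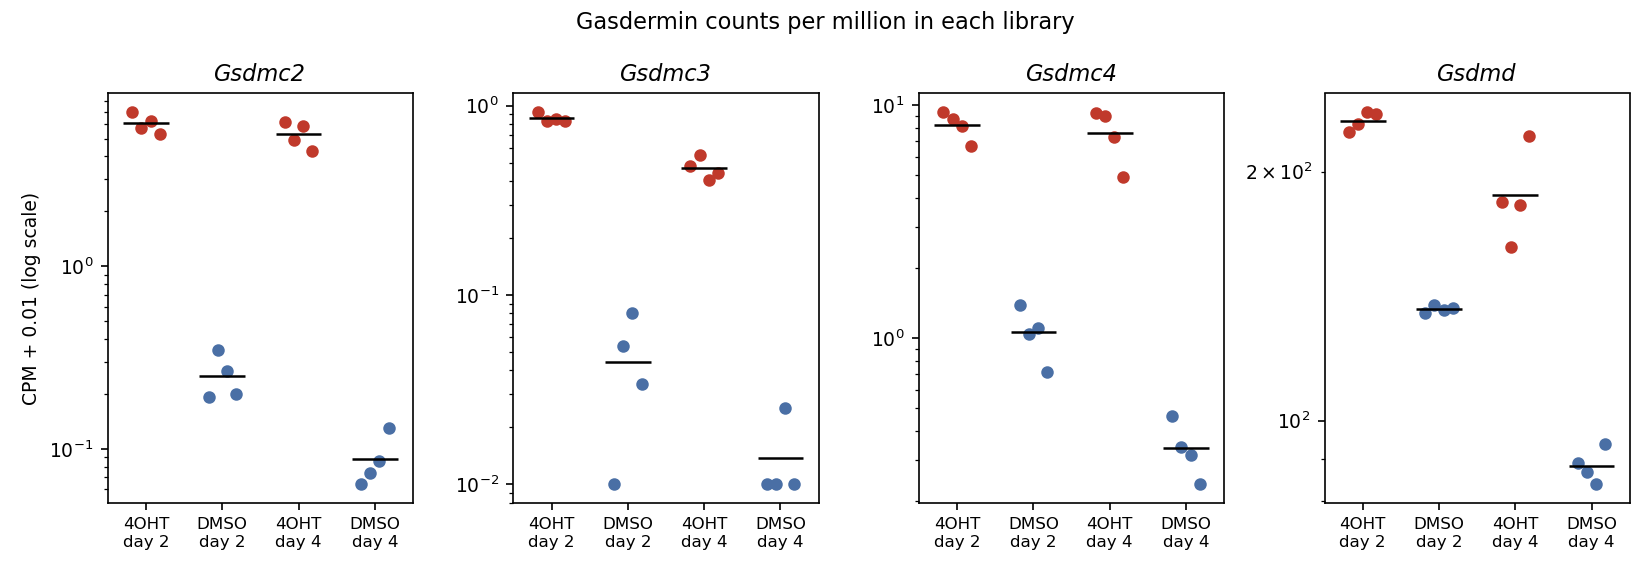
Level of each gasdermin in each of the 16 libraries, as CPM plus 0.01 on log axes that differ between panels; points are libraries and lines are group means (n = 4). In every panel the 4OHT points of a day sit above the DMSO points of the same day, by a wide margin for the array genes and by 1.70-fold and 2.12-fold for Gsdmd.

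All 4 listed genes were thus higher without overlap between treatments at both days. Among all genes tested, 17.0% were higher without overlap at day 2 and 14.7% at day 4; since the genes were picked on this contrast, nothing is read from their count. The median log2 fold change of all genes tested was 0.00 at day 2 and -0.01 at day 4.

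Per kilobase of exon, Gsdmd stood highest in all 4 groups. At day 2 it averaged 97.0 CPM per kb in 4OHT organoids, where Gsdmc4 averaged 3.93, Gsdmc2 2.62 and Gsdmc3 0.364 CPM per kb. In DMSO organoids at day 2 the order was the same, with 57.4 CPM per kb for Gsdmd, 0.504 for Gsdmc4, 0.105 for Gsdmc2 and 0.0148 for Gsdmc3. At day 4 the levels in 4OHT organoids were 78.8 CPM per kb for Gsdmd, 3.64 for Gsdmc4, 2.28 for Gsdmc2 and 0.197 for Gsdmc3, and in DMSO organoids 37.1, 0.157, 0.034 and 0.00163 CPM per kb in the same order of genes. The only neighbours in this order whose libraries overlapped were Gsdmc4 and Gsdmc2 in 4OHT organoids at day 4, at 3.64 ± 0.96 and 2.28 ± 0.367 CPM per kb (SD, n = 4), where the lowest Gsdmc4 library lay at 2.34 and the highest Gsdmc2 library at 2.65 CPM per kb.

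The make-up of the array counts differed between treatments. Pooled over 4 libraries at day 2, Gsdmc2 made up 40.1% of array reads in 4OHT (exact 95% counting interval 38.6 to 41.5%) and 18.5% in DMSO organoids (15 to 22.4%). At day 4 its pooled share was 39.6% in 4OHT (38.1 to 41.0%) and 18.0% in DMSO organoids (11.9 to 25.6%). By library, the Gsdmc2 share was 37.4 to 41.5% in 4OHT against 11.7 to 23.8% in DMSO at day 2, with no overlap, and 34.1 to 44.6% in 4OHT against 10.6 to 34.8% in DMSO at day 4, where replicate 4 of DMSO, with 23 array reads, reached into the 4OHT range. Gsdmc4 held the larger share in every library, 52.1 to 57.3% in 4OHT against 73.1 to 88.3% in DMSO at day 2 and 51.0 to 62.2% in 4OHT against 65.2 to 89.4% in DMSO at day 4. Gsdmc3 never passed 6.41%. These shares follow from the fold changes that chose the genes, so they are a description, and the sharing of reads among copies touches them directly.

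**Figure D2:**
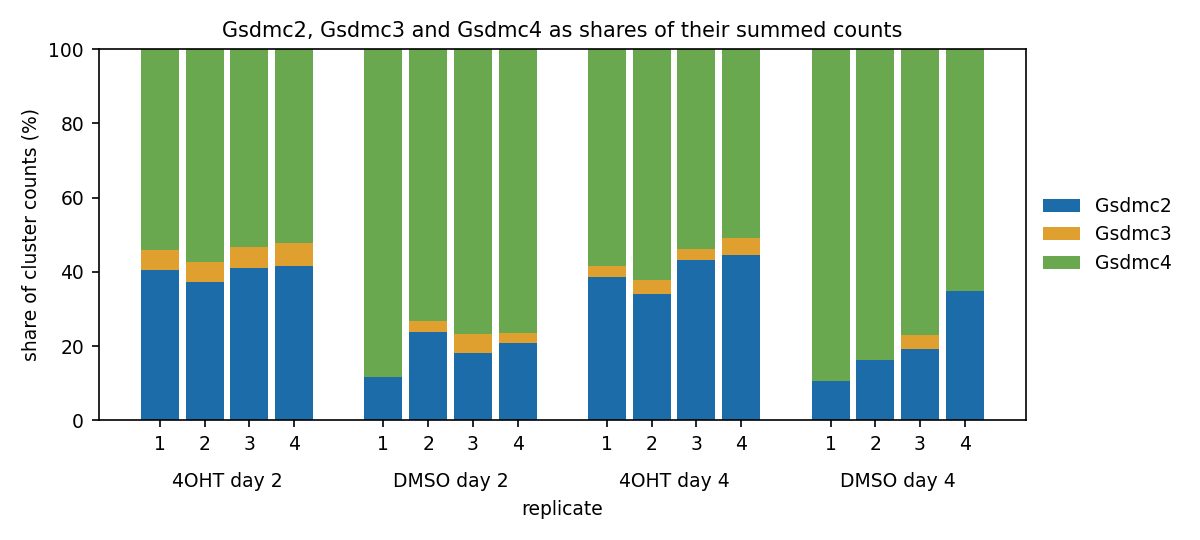
Stacked bars give the percentage of the summed Gsdmc2, Gsdmc3 and Gsdmc4 counts that each gene took in each library (replicate numbers on the horizontal axis). Gsdmc4 takes 51.0 to 62.2% in the 4OHT libraries and 65.2 to 89.4% in the DMSO libraries of day 4.

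Change with time was tested within each treatment, a contrast that did not choose the genes, although the same libraries entered both. Low DMSO and high 4OHT levels helped to choose the genes, so these tests are not independent of that choice. In DMSO organoids the array and Gsdmd fell by day 4. Gsdmc2 averaged 0.0786 ± 0.0293 CPM at day 4 and 0.242 ± 0.0716 CPM at day 2 (SD, n = 4 each), a log2 fold change of -1.66 ± 0.33 (SE; edgeR, adjusted p = 0.000976). Gsdmc4 averaged 0.329 ± 0.0947 CPM at day 4 and 1.05 ± 0.277 CPM at day 2, a log2 fold change of -1.63 ± 0.24 (edgeR, adjusted p = 8.67e-05). Gsdmd averaged 88.2 ± 4.12 CPM at day 4 and 136 ± 1.11 CPM at day 2, a log2 fold change of -0.61 ± 0.05 (edgeR, adjusted p = 3.79e-07). The array sum fell by 1.66 ± 0.19 on the log2 scale (edgeR, adjusted p = 1.33e-05). Gsdmc3 did not pass the filter on low counts, with 1 read at day 4 and 12 at day 2. Gsdmc2 passed it through its day 2 libraries, with 14 to 31 reads each against 5 to 8 at day 4. Its adjusted p is therefore only a description. In DMSO organoids 53.5% of the 16088 genes tested changed with time and 24.8% fell, and all 3 of the gasdermins tested fell. The libraries of the 2 days did not overlap for any of the 3, as for 24.2% of all genes. Because low DMSO levels at day 4 helped to choose these genes, nothing is read from their count.

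In 4OHT organoids Gsdmc3 and Gsdmd fell, and Gsdmc2 and Gsdmc4 did not pass the test. Gsdmc3 averaged 0.458 ± 0.0633 CPM at day 4 and 0.848 ± 0.0457 CPM at day 2, a log2 fold change of -0.87 ± 0.15 (SE; edgeR, adjusted p = 0.000885). Gsdmd averaged 187 ± 24.4 CPM at day 4 and 230 ± 6.35 CPM at day 2, a log2 fold change of -0.29 ± 0.08 (edgeR, adjusted p = 0.00873). Gsdmc2 averaged 5.29 ± 0.851 CPM at day 4 and 6.06 ± 0.729 CPM at day 2, a log2 fold change of -0.19 ± 0.13 (edgeR, adjusted p = 0.258). Gsdmc4 averaged 7.59 ± 2.0 CPM at day 4 and 8.20 ± 1.14 CPM at day 2, a log2 fold change of -0.10 ± 0.19 (edgeR, adjusted p = 0.69), which became 0.07 (edgeR, adjusted p = 0.668) without replicate 4 of 4OHT at day 4. The array sum had a log2 fold change of -0.17 ± 0.15 (edgeR, adjusted p = 0.369). In 4OHT organoids 49.4% of the 15962 genes tested changed with time, and of the 4 gasdermins 2 did, a share near that background and so no result about these genes; both fell, as did 23.5% of all genes.

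**Figure D3:**
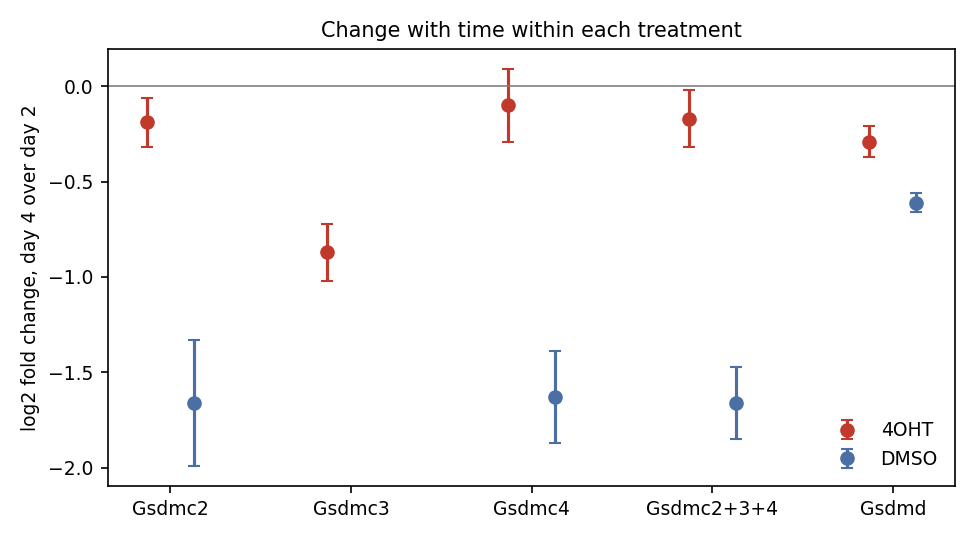
Log2 fold change of day 4 over day 2 within 4OHT (left point of each pair) and DMSO organoids (right point), with bars of 1 SE; Gsdmc3 in DMSO did not pass the filter. The DMSO points of the array lie between -1.66 and -1.63, and the 4OHT points of Gsdmc2, Gsdmc4 and their sum lie between -0.19 and -0.10.

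The treatment fold changes were accordingly larger at day 4 than at day 2, by 1.48 on the log2 scale for Gsdmc2, 1.53 for Gsdmc4, 1.48 for the array sum and 0.33 for Gsdmd. These differences are built from the contrasts that chose the genes and were not tested. For the array sum, the mean of DMSO organoids was 0.411 ± 0.0687 CPM at day 4 and 1.33 ± 0.281 CPM at day 2, while that of 4OHT organoids was 13.3 ± 2.68 CPM at day 4 and 15.1 ± 1.81 CPM at day 2.

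Among the other gasdermins, Gsdma and Gsdma2, known for expression in skin and upper gut, were low and higher after 4OHT. Gsdma averaged 1.26 ± 0.169 CPM in 4OHT and 0.597 ± 0.169 CPM in DMSO organoids at day 2 (SD, n = 4 each; log2 fold change 1.09 ± 0.19 SE, edgeR, adjusted p = 0.00103). Its day 4 means were 2.04 ± 0.0706 CPM in 4OHT and 0.859 ± 0.126 CPM in DMSO organoids (1.24 ± 0.13, edgeR, adjusted p = 0.000174). Gsdma2 averaged 4.26 ± 0.369 CPM in 4OHT and 2.67 ± 0.387 CPM in DMSO organoids at day 2 (0.68 ± 0.11, edgeR, adjusted p = 0.000733). The day 4 means were 1.56 ± 0.528 CPM in 4OHT and 0.734 ± 0.279 CPM in DMSO organoids (1.07 ± 0.29, edgeR, adjusted p = 0.0223), and the adjusted p was 0.0698, 0.0646 and 0.0545 without DMSO replicate 1, 3 or 4.

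Gsdme, which caspase-3 cuts, went the other way. It averaged 4.77 ± 0.623 CPM in 4OHT and 6.99 ± 0.315 CPM in DMSO organoids at day 4 (log2 fold change -0.55 ± 0.10 SE, edgeR, adjusted p = 0.00368), and 8.60 ± 0.906 CPM in 4OHT and 9.89 ± 0.251 CPM in DMSO organoids at day 2, which did not pass the test (-0.20 ± 0.08, edgeR, adjusted p = 0.07; 0.00731 without 4OHT replicate 2, and 0.0467 with DESeq2). Of the 3 other gasdermins tested, 2 were thus higher and 0 lower at day 2, and 2 higher and 1 lower at day 4. Across all genes tested, 16.9% were higher and 14.3% lower at day 2, and 13.7% were higher and 11.1% lower at day 4. Libraries of day 4 that carry the same replicate number deviated together. A fit that blocked on this number called 3651 genes higher and 3565 lower at day 4, against 2191 and 1776 without the block.

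Pjvk and Gsdmcl-ps, an annotated pseudogene next to Gsdmc4 on the opposite strand, were listed and did not pass the filter. Gsdmcl-ps had 8 reads in 4OHT and 3 in DMSO libraries at day 2, a ratio of 3.01 (exact 95% counting interval 0.723 to 17.6). At day 4 it had 14 reads in 4OHT and 0 in DMSO libraries, 4.68-fold higher if the DMSO group is set at a floor of 3 reads. This value carries no interval for counting error. Gsdma3, Gsdmcl1 and Gsdmcl2 were not listed.

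Upstream of gasdermin cleavage, the sensors and adaptor of inflammasomes, the complexes that activate caspase-1, did not move one way. Of 12 tested, 5 were higher and 3 lower at day 2 (median log2 fold change 0.18, all genes 0.00), against 16.9% and 14.3% of all genes. Those higher were Naip1, Nlrc4 and, named after their values were seen, Nlrp10, Aim2 and Nek7. Those lower were Nlrp1b, Nlrp6 and the adaptor Pycard. At day 4, 5 were higher and 1 lower (median 0.31, all genes -0.01), against 13.7% and 11.1% of all genes. The replicate block gave 7 and 2, but it also raised the counts over all genes, to 3651 and 3565. Those higher were Naip1, Nlrc4 and, again named after their values were seen, Naip2, Naip5 and Aim2, and Nlrp1b was lower.

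Naip1, a receptor for bacterial secretion needles that signals through Nlrc4, averaged 274 ± 5.36 CPM in 4OHT and 206 ± 14.8 CPM in DMSO organoids at day 2 (log2 fold change 0.42 ± 0.06 SE, edgeR, adjusted p = 0.000174). At day 4 it averaged 182 ± 11.3 CPM in 4OHT and 130 ± 3.0 CPM in DMSO organoids (0.49 ± 0.05, edgeR, adjusted p = 0.000159). Nlrc4 had log2 fold changes of 0.26 ± 0.05 at day 2 (edgeR, adjusted p = 0.00219) and 0.37 ± 0.05 at day 4 (edgeR, adjusted p = 0.000703). Nlrp1b had log2 fold changes of -0.68 ± 0.11 at day 2 (edgeR, adjusted p = 0.000537) and -0.57 ± 0.08 at day 4 (edgeR, adjusted p = 0.000757). Nlrp6, the most abundant sensor named, averaged 315 ± 23.4 CPM in 4OHT and 394 ± 15.2 CPM in DMSO organoids at day 2 (-0.31 ± 0.06, edgeR, adjusted p = 0.00152). Its day 4 value was -0.10 ± 0.05 (edgeR, adjusted p = 0.183; 0.0283 with the replicate block). Pycard averaged 188 ± 21.0 CPM in 4OHT and 242 ± 28.7 CPM in DMSO organoids at day 2 (-0.35 ± 0.09, edgeR, adjusted p = 0.0116; 0.0566 without DMSO replicate 1), and its day 4 log2 fold change was 0.07 ± 0.05 (edgeR, adjusted p = 0.396).

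The proteases known to cut gasdermins showed small differences. Of 6 tested, 1 was higher, Casp8, and 3 were lower at day 2, Casp4 and Casp6 among them (median log2 fold change -0.13; Casp4 and Casp8 named after their values were seen); with all 16 libraries in 1 fit, 0 were higher and 2 lower. At day 4 Casp1 alone was higher (median 0.17). The replicate block gave 4 genes higher, DESeq2 or all 16 libraries 3, and leaving out replicate 4 of 4OHT 2. Over all genes the block raised the counts as well, to 3651 higher and 3565 lower from 2191 and 1776. Among all genes tested, 16.9% were higher and 14.3% lower at day 2, and 13.7% and 11.1% at day 4. Casp1, which cuts gasdermin D, averaged 118 ± 11 CPM in 4OHT and 122 ± 10.5 CPM in DMSO organoids at day 2 (log2 fold change -0.04 ± 0.07 SE, edgeR, adjusted p = 0.733). Its day 4 means were 118 ± 5.33 CPM in 4OHT and 98.9 ± 4.35 CPM in DMSO organoids (0.26 ± 0.05, edgeR, adjusted p = 0.00409). Casp6, an executioner caspase, had log2 fold changes of -0.26 ± 0.07 at day 2 (edgeR, adjusted p = 0.0113) and -0.06 ± 0.06 at day 4 (edgeR, adjusted p = 0.532).

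Of cytokines and alarmins that lytic death releases or that act on their receptors, 5 were tested. At day 2, 3 were higher and 1 lower (median log2 fold change 0.59), against 16.9% and 14.3% of all genes. At day 4, 2 were higher and 1 lower (median 0.53), against 13.7% and 11.1%, or 3 and 1 with the replicate block. Over all genes the block raised the counts as well, to 3651 higher and 3565 lower from 2191 and 1776. Il1rn, the interleukin-1 receptor antagonist, averaged 201 ± 20.3 CPM in 4OHT and 68.0 ± 10.3 CPM in DMSO organoids at day 2 (1.57 ± 0.10 SE, edgeR, adjusted p = 5.83e-07). The day 4 means were 61.4 ± 32.0 CPM in 4OHT and 8.90 ± 2.5 CPM in DMSO organoids (2.79 ± 0.36, edgeR, adjusted p = 0.00075). Il18, a cytokine that leaves cells through gasdermin D pores, averaged 35.6 ± 1.05 CPM in 4OHT and 23.8 ± 0.809 CPM in DMSO organoids at day 2 (0.59 ± 0.05, edgeR, adjusted p = 2.74e-06). At day 4 it averaged 17.6 ± 2.75 CPM in 4OHT and 9.79 ± 1.69 CPM in DMSO organoids (0.85 ± 0.14, edgeR, adjusted p = 0.00154). Il33, an alarmin of epithelial cells, had log2 fold changes of 0.71 ± 0.12 at day 2 (edgeR, adjusted p = 0.000773) and 0.53 ± 0.21 at day 4 (edgeR, adjusted p = 0.0865; 0.00183 with the replicate block, and 0.0385 without DMSO replicate 4). Hmgb1, a chromatin protein and alarmin, was lower, at -0.19 ± 0.04 at day 2 (edgeR, adjusted p = 0.00823) and -0.23 ± 0.05 at day 4 (edgeR, adjusted p = 0.00606).

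Genes downstream of or acting on gasdermin pores made up a list of 22, covering the membrane rupture protein Ninj1, the ESCRT repair machinery, the Ragulator complex and regulators of gasdermin D. All 22 were tested, beside all genes with 16.9% higher and 14.3% lower at day 2, and 13.7% and 11.1% at day 4. At day 2, 5 were higher and 3 lower (median log2 fold change 0.06), or 3 and 2 with all 16 libraries in 1 fit; Chmp4c, Irf2 and Lamtor2 were the lower ones and, like Chmp3 and Lamtor3 among the higher, were named after their values were seen. At day 4, 7 were higher and 0 lower (median 0.14), 13 and 1 with the replicate block, and 5 and 0 without replicate 4 of 4OHT. The block also raised the counts over all genes, to 3651 higher and 3565 lower from 2191 and 1776. Chmp2b, an ESCRT-III subunit, had log2 fold changes of 0.38 ± 0.04 at day 2 (SE; edgeR, adjusted p = 2.25e-05) and 0.50 ± 0.09 at day 4 (edgeR, adjusted p = 0.00281). Pdcd6ip, which recruits ESCRT-III, averaged 410 ± 6.31 CPM in 4OHT and 339 ± 10.1 CPM in DMSO organoids at day 2 (0.28 ± 0.04, edgeR, adjusted p = 0.000433), and its day 4 value was 0.26 ± 0.05 (edgeR, adjusted p = 0.00669). Zdhhc5, a palmitoyl transferase that acts on gasdermin D, had values of 0.27 ± 0.04 (edgeR, adjusted p = 0.000352) at day 2 and 0.20 ± 0.06 (edgeR, adjusted p = 0.0289) at day 4, where the adjusted p lay between 0.0636 and 0.0817 without 4OHT replicate 3 or DMSO replicate 1, 2 or 3. Chmp4b, another ESCRT-III subunit, had values of 0.07 ± 0.04 at day 2 (edgeR, adjusted p = 0.22) and 0.17 ± 0.06 at day 4 (edgeR, adjusted p = 0.0659; 0.00603 with the replicate block, and 0.0473 and 0.0448 without 4OHT replicate 1 or 2).

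Genes of the interleukin-4 and interleukin-13 response, the signal best known to raise the gasdermin C array in mouse gut, were in part higher. Whether this signal bears on the array in these organoids was not tested. The list held 12 genes, of which 9 were listed. Of 8 tested, 5 were higher and 0 lower at day 2 (median log2 fold change 0.45), against 16.9% and 14.3% of all genes. At day 4, 2 were higher and 0 lower (median 0.54), against 13.7% and 11.1%, or 5 and 0 with the replicate block. Over all genes the block raised the counts as well, to 3651 higher and 3565 lower from 2191 and 1776. Clca1, a secreted goblet cell protein, averaged 1030 ± 61.0 CPM in 4OHT and 479 ± 16.1 CPM in DMSO organoids at day 2 (1.10 ± 0.05 SE, edgeR, adjusted p = 8.25e-08). Its day 4 means were 475 ± 18.3 CPM in 4OHT and 124 ± 11.7 CPM in DMSO organoids (1.94 ± 0.07, edgeR, adjusted p = 3.18e-07). The small proline-rich proteins Sprr2a1 and Sprr2a2, near copies of each other and so uncertain singly, had day 2 log2 fold changes of 0.75 ± 0.08 for Sprr2a1 (edgeR, adjusted p = 2.86e-05) and 0.89 ± 0.10 for Sprr2a2 (edgeR, adjusted p = 4.16e-05). At day 4 Sprr2a1 stood at 0.56 ± 0.29 (edgeR, adjusted p = 0.193; 0.0184 with the replicate block, and 0.0404 without 4OHT replicate 2) and Sprr2a2 at 0.58 ± 0.34 (edgeR, adjusted p = 0.258; 2.38e-05 with the block). Sprr2a3 at day 2 and the receptor chain Il13ra1 at both days were the others higher, named after their values were seen. The receptor chain Il4ra had values of -0.02 ± 0.04 at day 2 (edgeR, adjusted p = 0.671) and 0.11 ± 0.09 at day 4 (edgeR, adjusted p = 0.402). Stat6 had values of -0.05 ± 0.04 at day 2 (edgeR, adjusted p = 0.381) and -0.03 ± 0.05 at day 4 (edgeR, adjusted p = 0.682). Il4ra and Stat6 were also named after their values were seen. Ang4, an antimicrobial protein of Paneth and goblet cells, had values of -0.13 ± 0.07 at day 2 (edgeR, adjusted p = 0.201; 0.013 without DMSO replicate 3) and 0.13 ± 0.11 at day 4 (edgeR, adjusted p = 0.469).

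Loss of the TGF-beta receptor Tgfbr2 is known to raise gasdermin C in mouse colon tumours. Whether TGF-beta signalling bears on the array in these organoids was not tested, and receptor RNA does not measure that signalling. Here Tgfbr2 averaged 162 ± 16.3 CPM in 4OHT and 120 ± 10.7 CPM in DMSO organoids at day 2 (log2 fold change 0.44 ± 0.08 SE, edgeR, adjusted p = 0.00142). The day 4 means were 131 ± 26.8 CPM in 4OHT and 104 ± 8.77 CPM in DMSO organoids (0.33 ± 0.12, edgeR, adjusted p = 0.0773; 0.00308 with the replicate block, and 0.0401 without 4OHT replicate 2). Of 8 TGF-beta receptors, ligands and Smads tested, 4 were higher and 0 lower at day 2 (median 0.18), against 16.9% and 14.3% of all genes. At day 4, 2 were higher and 2 lower (median 0.06), against 13.7% and 11.1%, or 3 and 3 with the replicate block. Over all genes the block raised the counts as well, to 3651 higher and 3565 lower from 2191 and 1776. Tgfb1, at both days, and Tgfbr1 were named after their values were seen. Smad7, the inhibitory Smad, had values of 0.36 ± 0.05 at day 2 (edgeR, adjusted p = 0.000353) and 0.32 ± 0.09 at day 4 (edgeR, adjusted p = 0.0195; 0.0654 without 4OHT replicate 3 and 0.0562 without DMSO replicate 4). The signalling Smad3 had values of 0.19 ± 0.04 (edgeR, adjusted p = 0.00655) at day 2 and 0.08 ± 0.05 (edgeR, adjusted p = 0.322) at day 4. Smad4, its partner, had values of -0.10 ± 0.05 (edgeR, adjusted p = 0.143) at day 2 and -0.13 ± 0.04 (edgeR, adjusted p = 0.0376) at day 4, where leaving out any library but 4OHT replicate 4 gave an adjusted p of 0.0535 to 0.0916.

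Cell type markers moved with treatment as well. Among all genes tested, 16.9% were higher and 14.3% lower at day 2, and 13.7% and 11.1% at day 4. The summed level of 7 goblet markers, Clca1 among them, was 7410 to 9490 CPM in 4OHT and 4850 to 5700 CPM in DMSO organoids at day 2, and 7290 to 9220 CPM in 4OHT and 3920 to 5160 CPM in DMSO organoids at day 4; 6 of the 7 were higher at day 2 and 5 at day 4. The summed level of 5 stem cell markers was 604 to 655 CPM in 4OHT and 1080 to 1190 CPM in DMSO organoids at day 2, and 1920 to 2290 CPM in 4OHT and 2910 to 3250 CPM in DMSO organoids at day 4, all 5 being lower on both days. For 6 Paneth markers the sum was 1520 to 1680 CPM in 4OHT and 1850 to 2410 CPM in DMSO organoids at day 2, and 2150 to 2340 CPM in 4OHT and 2410 to 2970 CPM in DMSO organoids at day 4, 3 of 6 being lower on each day. The sum of 8 enterocyte markers overlapped between treatments on both days, at 3900 to 5720 CPM in 4OHT and 5500 to 7360 CPM in DMSO organoids at day 2, and 7520 to 10200 CPM in 4OHT and 7800 to 8630 CPM in DMSO organoids at day 4; 5 were lower at day 2 and 3 higher at day 4. The 6 tuft markers summed to 9.66 to 13.3 CPM in 4OHT and 8.51 to 11.1 CPM in DMSO organoids at day 2 and to 15 to 24.8 CPM in 4OHT and 15.3 to 21.4 CPM in DMSO organoids at day 4, with 1 higher on each day. The 6 enteroendocrine markers summed to 257 to 282 CPM in 4OHT and 259 to 294 CPM in DMSO organoids at day 2 and to 294 to 384 CPM in 4OHT and 289 to 396 CPM in DMSO organoids at day 4, with 1 lower at day 2. The part of these shifts in the gasdermin levels was not tested.

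The tested coding genes next to the array had log2 fold changes between -0.27 and 0.81. Fam49b, the nearest coding gene at 16.8 kb, averaged 96.9 ± 2.55 CPM in 4OHT and 89.3 ± 2.42 CPM in DMSO organoids at day 2 (log2 fold change 0.13 ± 0.04 SE, edgeR, adjusted p = 0.0351; 0.0551 to 0.132 when any library but DMSO replicate 4 was left out), and its day 4 value was 0.00 ± 0.07 (edgeR, adjusted p = 0.976). Asap1, at 174.6 kb, averaged 34.1 ± 0.898 CPM in 4OHT and 19.5 ± 1.63 CPM in DMSO organoids at day 2 (0.81 ± 0.06, edgeR, adjusted p = 1.9e-06), and 19.8 ± 5.13 CPM in 4OHT and 13.5 ± 0.688 CPM in DMSO organoids at day 4 (0.55 ± 0.15, edgeR, adjusted p = 0.0232; 0.0532 to 0.062 without DMSO replicate 2, 3 or 4). Adcy8, at 784.8 kb, had values of 0.28 ± 0.08 at day 2 (edgeR, adjusted p = 0.0185; 0.0586 to 0.0762 without 4OHT replicate 3 or 4 or DMSO replicate 2) and -0.15 ± 0.10 at day 4 (edgeR, adjusted p = 0.299). On the other side Myc, at 1785.6 kb, had values of 0.00 ± 0.06 at day 2 (edgeR, adjusted p = 0.972) and -0.27 ± 0.04 at day 4 (edgeR, adjusted p = 0.00198). Fam84b, at 2922.2 kb, had values of 0.13 ± 0.07 (edgeR, adjusted p = 0.16) and 0.10 ± 0.07 (edgeR, adjusted p = 0.337; 0.0169 with the replicate block), and A1bg was not listed.

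Around Gsdmd, Zc3h3 at 20.4 kb was higher on both days, averaging 38.2 ± 1.08 CPM in 4OHT and 29.6 ± 1.70 CPM in DMSO organoids at day 2 (0.38 ± 0.05 SE, edgeR, adjusted p = 9.1e-05) and 30.7 ± 1.79 CPM in 4OHT and 24.1 ± 1.59 CPM in DMSO organoids at day 4 (0.35 ± 0.06, edgeR, adjusted p = 0.00286). Mroh6, the nearest at 16.7 kb, had values of 0.17 ± 0.17 at day 2 (edgeR, adjusted p = 0.473) and -0.06 ± 0.18 at day 4 (edgeR, adjusted p = 0.844). Naprt, at 23.5 kb, was lower at day 2 (-0.42 ± 0.11, edgeR, adjusted p = 0.0134; 0.081 without DMSO replicate 1) and had a value of -0.07 ± 0.06 at day 4 (edgeR, adjusted p = 0.506). Eef1d, whose annotated span overlaps that of Naprt on the same strand, had values of 0.01 ± 0.05 (edgeR, adjusted p = 0.946) and 0.00 ± 0.05 (edgeR, adjusted p = 0.975). Rhpn1 stood at 0.54 ± 0.25 at day 2 (edgeR, adjusted p = 0.144) and 0.17 ± 0.38 at day 4 (edgeR, adjusted p = 0.787), and Mafa did not pass the filter.

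**Figure D4:**
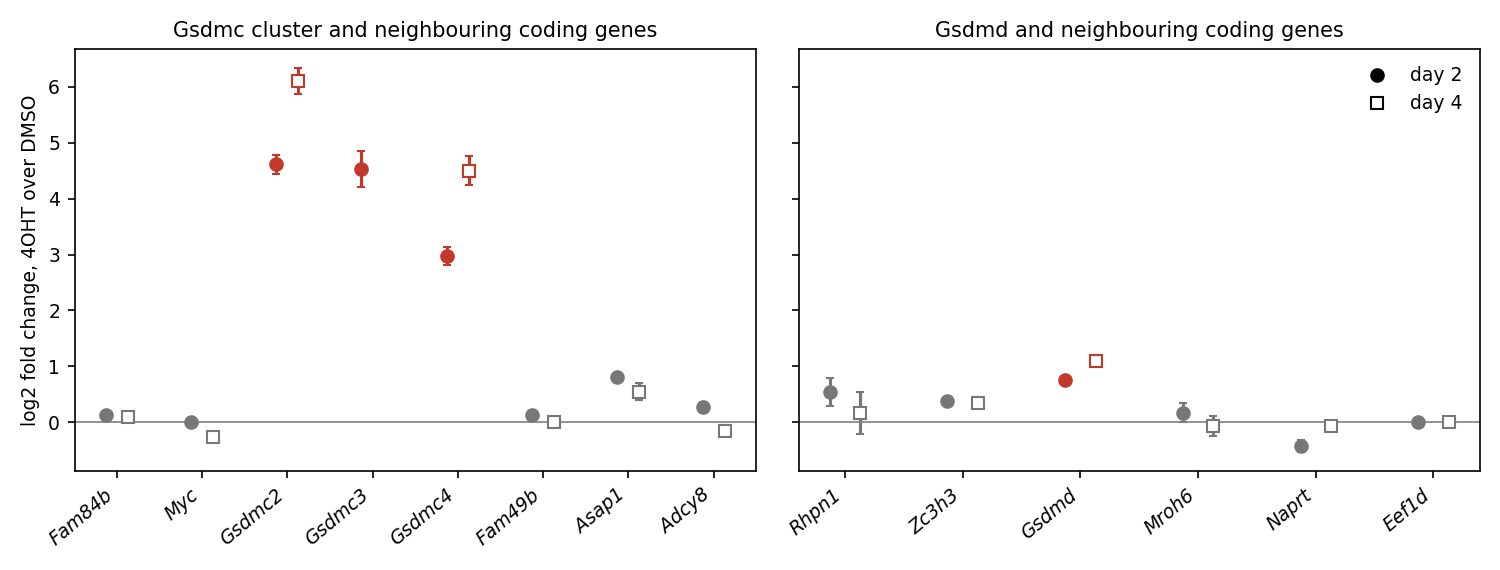
Log2 fold change of 4OHT over DMSO at day 2 (filled circles) and day 4 (open squares) with bars of 1 SE, for the array genes and Gsdmd (red) and the nearest coding genes tested on either side (grey), in their order along the chromosome but not to scale; Gsdmc3 at day 4 is left out. The array points lie between 2.97 and 6.10, and the neighbours of the array between -0.27 and 0.81.

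The RefSeq promoter table (GRCm38.p6) held 1 of the 4 listed genes, Gsdmc3. Its 250 bases before and 50 after the start, chr15:63878509-63878808 on the minus strand, are shown because no other listed gene was held there:
Gsdmc3: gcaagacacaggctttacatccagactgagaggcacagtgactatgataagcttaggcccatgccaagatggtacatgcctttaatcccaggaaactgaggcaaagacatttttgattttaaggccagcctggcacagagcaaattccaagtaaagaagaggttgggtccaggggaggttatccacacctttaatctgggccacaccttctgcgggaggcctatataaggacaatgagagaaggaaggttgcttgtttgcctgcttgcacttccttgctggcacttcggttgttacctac
Searched on both strands, it held no match to the HNF4 motifs CAAAGTCCA or CAAAGGTCA, to the STAT6 motif (TTC, 4 bases of any kind, then GAA), to the AP-1 motif TGAGTCA or to the TEAD motif GGAATG. Of the 32851 promoters in the table, 0.47%, 0.48%, 6.95%, 5.2% and 14.66% held these motifs, in the order named. No match says only that these letters are not in this window.

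Over all 16 libraries, the genes whose log2 CPM followed the array sum most closely, of 11472 compared, were Bcas1 (Pearson r 0.985), Rgs2 (0.983), Itgb7 (0.983), Slc17a9 (0.981) and Rab27a (0.978). Itgb7, an integrin chain best known on lymphocytes, averaged 5.25 CPM in 4OHT and 1.10 CPM in DMSO organoids at day 2, and 5.05 CPM in 4OHT and 0.798 CPM in DMSO organoids at day 4. Slc17a9, a vesicular nucleotide transporter, averaged 12.1 CPM in 4OHT and 3.32 CPM in DMSO organoids at day 2, and 10.1 CPM in 4OHT and 2.58 CPM in DMSO organoids at day 4. Bcas1 averaged 64.3 CPM in 4OHT and 29.6 CPM in DMSO organoids at day 2, and 53.5 CPM in 4OHT and 20.5 CPM in DMSO organoids at day 4.

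For Gsdmd the closest were Ly6g (0.996), Liph (0.994), Fer1l4 (0.993), Upk1b (0.990) and Mcpt2 (0.988). Ly6g, a surface protein that marks neutrophils in mice, averaged 29.1 CPM in 4OHT and 1.77 CPM in DMSO organoids at day 2, and 12.2 CPM in 4OHT and 0.217 CPM in DMSO organoids at day 4. Mcpt2, a mast cell protease, averaged 14.7 CPM in 4OHT and 1.91 CPM in DMSO organoids at day 2, and 5.47 CPM in 4OHT and 0.151 CPM in DMSO organoids at day 4. Upk1b, a urothelial membrane protein, averaged 15.3 CPM in 4OHT and 5.38 CPM in DMSO organoids at day 2, and 10.5 CPM in 4OHT and 2.06 CPM in DMSO organoids at day 4. The 16 libraries share 4 group means, so these values are a description. The 7 listed immune markers together summed to at most 2.52 CPM in 4OHT organoids at day 2 and 3.78 CPM at day 4. Which cells carried the RNA of Itgb7, Ly6g and Mcpt2 was not tested.

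With group means removed, the array sum was followed most closely by Phldb1 (0.947), Dhrs3 (0.938), Frs3 (0.938), Tha1 (0.927) and Rasd2 (0.927), none of which was among its closest profiles. Gsdmd was followed by Capn2 (0.974), Anxa5 (0.965), Fam189a2 (0.955), Serpinb5 (0.954) and Ly6g (0.951), so Ly6g stood in both of its lists. Capn2, a calcium-activated protease, averaged 124 CPM in 4OHT and 49.3 CPM in DMSO organoids at day 2, and 38.3 CPM in 4OHT and 10.3 CPM in DMSO organoids at day 4. Without replicate 4 of 4OHT at day 4, 2 of these 5 stayed among the closest to Gsdmd.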

How the data were processed

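Poly(A) RNA of 16 organoid samples (250 ng total RNA each) went into directional libraries, per the labels' protocols. The submitters' processing notes name bcl2fastq 1.8.4, STAR 2.4.0f1 and GRCm38. The authors deposited whole-number read counts per gene in 1 table per day; which tool, annotation and strand setting gave them is not given in the sources used here, so reads of genes overlapping on opposite strands may not be told apart. A further 16 per-library columns of normalized values were not used.

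Libraries were grouped by treatment and day, and the titles number the replicates. The test was edgeR 4.0.16 under R 4.3.3 with limma 3.58.1 (TMM, filterByExpr with a minimum count of 10, robust quasi-likelihood, Benjamini-Hochberg adjusted p below 0.05 over all genes tested), checked on simulated data, in fits of 8 libraries. The simulated data left out genes with few reads and gave all genes the same spread, so genes with few reads were not checked. The array sum replaced its 3 rows in a separate fit. Fold changes named as ratios of reads are library-scaled sums with exact intervals. CPM use 1 TMM scale over 16 libraries. Of the gene IDs, 20670 of 20790 (day 2) and 20542 of 20658 (day 4) were found in GENCODE M21; Gsdme and Pjvk were matched by ID. Likeness used log2 of CPM plus 0.1 for genes with a mean of at least 0 on that scale. Counting precision rests on library totals between 63.8 M and 93.3 M. No 2 libraries of a group were alike within counting noise.

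Same-numbered libraries deviated together at day 4 (correlations 0.63 to 0.81 over 9690 genes, each of the 8 libraries closest to its own number), a hint from the data that they pair; blocked day 4 values stand beside the day 4 calls and counts they change. Named genes were the gasdermins, Hnf4a, from each pathway list up to 3 of smallest p past the threshold and the 2 most abundant, the 3 nearest coding genes on each side, and the 5 closest profiles. Some genes that this rule or a marker list names are not reported here. Members and lists were chosen with earlier results of these data known. Alternatives were DESeq2 1.42.0 (test or size factors), no filter, at least 1 CPM in 4 libraries, the block, all 16 libraries in 1 fit, and leaving out each library.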

Additional observations from a re-analysis of the deposited data

How the results depend on the processing

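Of 1441 values under alternatives, 1355 kept their direction and call or moved by less than the replicate spread, and 24 changed sign. The counts of array reads in DMSO organoids limit precision: 133 reads over 4 libraries at day 4. Leaving out 1 library at a time, the log2 fold change of Gsdmc3 at day 2 ran between 4.16 and 5.07, that of Gsdmc2 at day 4 between 5.94 and 6.34, and that of Gsdmc4 with time in 4OHT between -0.22 and 0.07, the last without replicate 4 of 4OHT at day 4; without it 2 genes stayed among the 5 closest to Gsdmd after removal of group means. With the replicate block 3651 genes were higher and 3565 lower at day 4. The gasdermins have no call in the treatment comparisons; their blocked fold changes there kept their direction, and none was computed for Gsdmc3 at day 4. In the time comparisons the block changed no call of Gsdmc2, Gsdmc4, Gsdmd or the array sum, nor of Gsdmc3 in 4OHT. Same-numbered libraries did not pair at day 2 (correlations -0.11 to 0.47), between days in DMSO (0.07 to 0.19) or in 4OHT (-0.23 to 0.39), where the block gave 2680 higher and 2236 lower, 4669 and 3996, and 4162 and 3805 genes. At day 2 the block left 0 proteases higher in place of 1, and 4 in place of 5 genes of membrane rupture, repair and regulation. Uncalled values near 0 changed sign when 1 library was left out: Myc at day 2 (-0.07 to 0.03), Casp1 at day 2 (-0.10 to 0.00), Eef1d at day 2 (-0.04 to 0.04) and day 4 (-0.03 to 0.03), Fam49b at day 4 (-0.05 to 0.04), Rhpn1 at day 4 (-0.03 to 0.41) and Mroh6 at day 4 (-0.17 to 0.06). Eef1d at day 2 also stood at 0.00 with DESeq2, with at least 1 CPM in 4 libraries and with all 16 libraries, and at -0.01 with no filter. The cause was not tested. With at least 1 CPM in 4 libraries no value was given for Gsdmc3, or for Gsdmc2 and the array sum with time in DMSO. The array sum, and the list genes and neighbours, were put through the alternatives after the data were seen.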
